A study of Mus musculus with 25 samples.

Results

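The Gata, Zic and Sall genes examined here encode zinc finger transcription factors, and 10 of them were followed in peak lists of H3K27me3: Gata2, Gata3, Gata4, Gata5, Gata6, Zic1, Zic2, Zic4, Sall1 and Sall3. They were picked by gene symbol, and each peak belongs to the symbol that the deposited annotation gives it. Of the 10 genes, 9 had at least 1 peak, and together they held 508 of the 34244 H3K27me3 peaks, which were spread over 6091 genes. No peak of any list was assigned to Gata5.

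The lists come from chromatin immunoprecipitation sequencing (ChIP-seq) of myofibers that regenerated in the tibialis anterior, a mouse leg muscle, at 14 days post injury (dpi), and the comparison asks how the repressive mark is distributed when HIF1α activity is raised. Every mouse, the wild-type ones included, had the Pax7-Cre(ERT2) driver, active in muscle stem cells once tamoxifen is given, and a mito-Dendra2 allele that labels the descendants of those cells. Tamoxifen was given at 75 mg/kg on 5 days, and 2 days later the muscle was injured with 50 µL of 1.2% BaCl2. H3K27me3 was profiled in 4 genotypes with 3 libraries each. The wild-type myofibers had none of the mutations named next. The mfn2-/- myofibers lack mitofusin 2, a protein of the outer mitochondrial membrane that drives fusion. In vhl-/- myofibers VHL is missing, through which HIF1α is recognised and degraded, and HIF1dPA myofibers express a HIF1α whose altered prolines let it escape VHL. Because recombination is limited to cells that expressed Pax7, nuclei of other cells in the dissected tissue keep their unrecombined alleles. Age and sex were not given in the sources used here. The study describes the 3 libraries of a genotype and mark as biological replicates. The labels do not name the animals behind each library.

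H3K27me3 is laid down by Polycomb repressive complex 2, whose catalytic subunit is EZH2 or EZH1, and removed by the demethylases KDM6A and KDM6B. It forms broad domains over genes that direct the development of other lineages, and the CpG-rich starts of such genes are typical places where the complex is recruited. The GATA factors act in blood, heart and endoderm, the ZIC factors in the neural tube and cerebellum, and the SALL factors in kidney, limb and neural development, so none is a defining factor of the adult myofiber.

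The lists differed in length before any gene is considered. Wild-type, mfn2-/- and vhl-/- lists held 3358 to 4035 peaks, and the 3 HIF1dPA lists held 482, 499 and 501. The X chromosome carried 30.0 to 30.3% of the peaks in mfn2-/- lists and 0.146 to 1.24% in the other 9 lists. The lists give no read totals, so depth is unknown and an absent peak means only that none was called. None of 8 myofiber markers, among them Ckm and Acta1, had an H3K27me3 peak in any list. Of the markers of other cells, the fibroblast gene Pdgfra had a peak in 9 lists and the leukocyte gene Ptprc in 1, and the remaining 10 had none. In tissue dissected in bulk, fewer cells that carry a mark and less of the mark per cell cannot be told apart.

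H3K27me3 peaks were assigned to the same 9 genes in each of the 9 wild-type, mfn2-/- and vhl-/- lists. This gives 9 ± 0 genes per list in each of these genotypes (SD, n = 3), against 3 ± 1 in HIF1dPA lists, which held 4, 3 and 2 of the genes. Of the 2393 genes with a peak in at least 3 of the 12 lists, 15.3% had a peak in all 9 lists of the 3 genotypes. Their peaks were longer and stronger than most. In those 9 lists the median width of 491 peaks was 915 bp, compared with 744 bp for all 32762 peaks, and 23.6% of them lay in the top 10% of their list by score, as did 10.0% of all peaks. The score is 10 times −log10 of the p-value that MACS gave each peak, and it was used only to rank peaks within a list.

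The peaks of these genes were spread over promoters, introns and intergenic sequence, as were all peaks. The authors' classes placed 217 of the 508 peaks (42.7%) in promoters, which reach 3 kb from a start, against 47.2% of all peaks. Introns held 26.2% of them against 15.9%, and distal intergenic sequence held 137 of the 508 peaks against 32.0% of all. The share differed from gene to gene. All 12 Sall3 peaks and 26 of 35 Gata6 peaks were intronic, 26 of 41 Zic1 peaks were intergenic, and 21 of 27 Zic2 peaks were in promoters.

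Start sites could be examined directly for 6 of the 10 genes, for which RefSeq (GRCm38.p6, the build named mm10 in the labels) lists 9 windows from 250 bp before to 50 bp after a start. Gata4, Gata6, Zic2 and Sall3 have no entry. A set of 4 windows is printed 5′ to 3′ with each CpG dinucleotide in capitals, 1 each for 4 of the 6 genes. Peaks reached these windows in 0 to 4 of the 12 lists. The printed Sall1 and Gata5 windows were the most often covered of the 9. Over all 9 windows the CpG count ran from 8, at Zic4, to 39, at another Sall1 start. The printed windows are chr9:91365719-91366018 (minus strand) of Zic1, chr6:88193641-88193940 (plus strand) of Gata2, chr8:89044113-89044412 (minus strand) of Sall1 and chr2:180334630-180334929 (minus strand) of Gata5.
Zic1: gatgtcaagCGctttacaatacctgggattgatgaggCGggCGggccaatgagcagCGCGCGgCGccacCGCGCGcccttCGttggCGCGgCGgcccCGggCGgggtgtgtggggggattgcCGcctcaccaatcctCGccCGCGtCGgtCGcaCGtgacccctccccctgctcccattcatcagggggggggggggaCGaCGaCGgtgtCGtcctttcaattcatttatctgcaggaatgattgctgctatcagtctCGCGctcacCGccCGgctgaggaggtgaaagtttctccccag
Gata2: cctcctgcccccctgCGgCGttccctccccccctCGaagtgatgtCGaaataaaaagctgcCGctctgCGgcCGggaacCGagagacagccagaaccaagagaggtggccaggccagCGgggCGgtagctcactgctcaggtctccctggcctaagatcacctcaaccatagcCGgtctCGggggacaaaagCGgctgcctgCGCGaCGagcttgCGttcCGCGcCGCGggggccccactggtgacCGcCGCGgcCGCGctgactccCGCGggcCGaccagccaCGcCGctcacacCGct
Sall1: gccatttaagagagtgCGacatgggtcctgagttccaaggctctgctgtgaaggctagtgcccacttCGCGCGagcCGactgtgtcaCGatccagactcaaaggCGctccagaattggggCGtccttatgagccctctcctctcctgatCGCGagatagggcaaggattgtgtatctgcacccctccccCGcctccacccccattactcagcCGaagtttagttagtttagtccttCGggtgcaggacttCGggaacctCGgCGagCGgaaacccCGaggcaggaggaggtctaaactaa
Gata5: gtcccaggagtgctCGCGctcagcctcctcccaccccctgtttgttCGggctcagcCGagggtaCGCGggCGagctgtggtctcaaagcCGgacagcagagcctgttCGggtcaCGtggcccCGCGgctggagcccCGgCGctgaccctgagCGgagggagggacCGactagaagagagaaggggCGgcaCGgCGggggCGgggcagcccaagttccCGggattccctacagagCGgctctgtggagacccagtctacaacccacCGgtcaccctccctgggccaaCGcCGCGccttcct

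These windows hold 31, 32, 18 and 26 CpGs (the letters CG, which read the same on both strands), and the median over all 32851 windows is 7. At least as many CpGs were found in 10.6%, 9.52%, 29.7% and 16.9% of all windows. No list had a peak over the Zic1 window. Peaks overlapped the Gata2 window in 1 mfn2-/- and 1 vhl-/- list, the Sall1 window in 4 lists and the Gata5 window in 3 lists. Over the 359 windows of genes with a peak in all 9 lists of the 3 genotypes, the median was 2 lists of 12, and 25.9% had a peak in none. Sparse cover was thus common among these windows, which belong to 245 genes, while 23.7% of them had a peak in 5 or more lists.

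The stretches that recurred most from list to list lay outside these windows, though often within the authors' promoter class, which reaches further and uses starts that the windows do not all include. In Zic1, the stretch chr9:91358788-91359431 was covered in all 9 wild-type, mfn2-/- and vhl-/- lists, and it lies within the gene 6337 bp downstream of the start printed above. All 9 peaks over it were classed as promoter. In Sall1, 76 bp at chr8:89040904-89040979 were covered in 8 of the 9 lists, 3183 bp downstream of the printed start, and 7 of the 8 peaks over them were classed as promoter. The best shared Gata3 stretch, chr2:9891984-9892312, was covered in 7 of the 9 lists and lies 4031 bp outside the RefSeq gene interval. All 8 peaks over it were classed as promoter. Gata4 had a stretch covered in all 9 lists at chr14:63262530-63262764, where all 9 peaks were classed as intronic, and Zic2 had one of 62 bp at chr14:122480719-122480780. Gata2 was the exception, since no base of it was covered in more than 4 of the 9 lists. Of the bases covered at Gata2 in any of the 9 lists, 58.1% were covered in 1 list only, compared with 12.9% at Zic2 and a median of 35.0% over the 367 genes with a peak in all 9 lists.

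**Figure D1:**
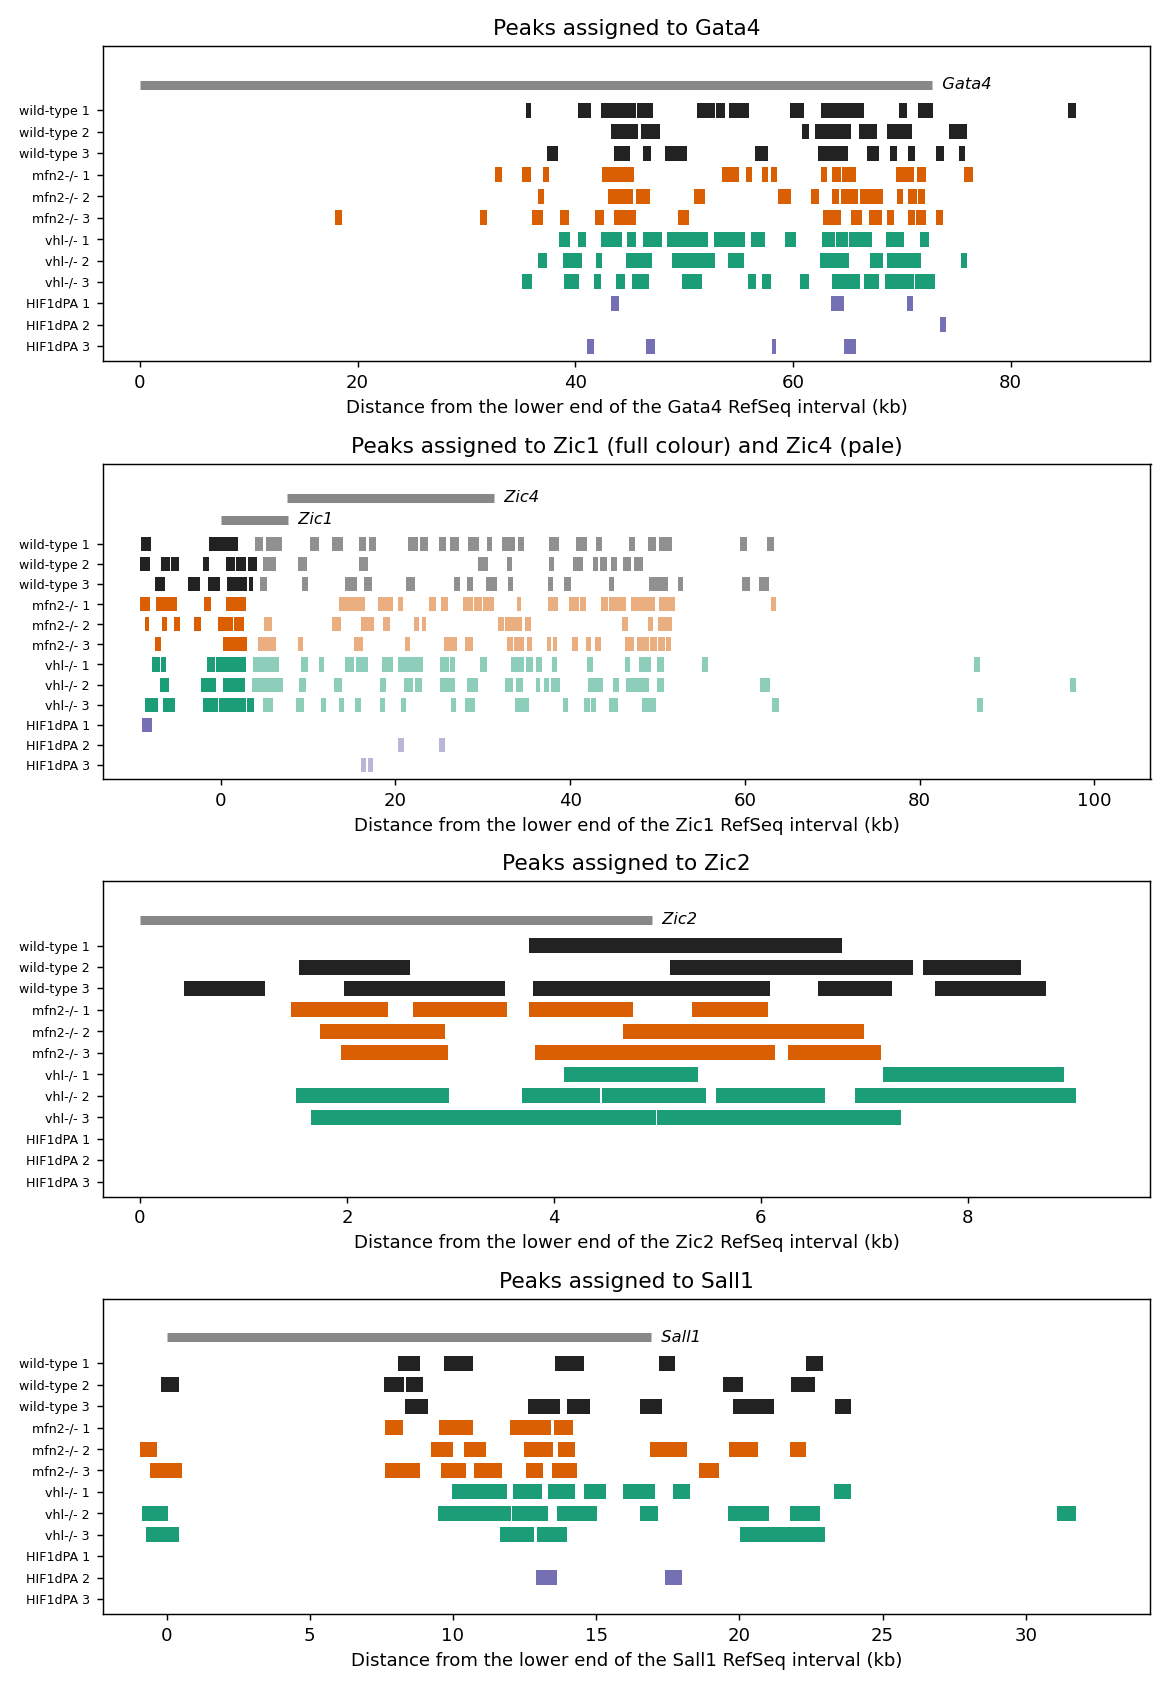
H3K27me3 peaks (bars) assigned to Gata4, to Zic1 and Zic4, to Zic2 and to Sall1 in each of the 12 lists, against distance in kb from the lower end of the RefSeq gene interval, which is drawn as a grey bar. Wild-type, mfn2-/- and vhl-/- lists carry peaks at each locus, with 9 to 16 at Gata4 and 1 to 5 at Zic2. HIF1dPA lists carry 1 to 4 at Gata4 and none at Zic2.

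The GATA genes differed widely in how much of them was covered. Gata4, a factor of heart and endoderm development, had 124 peaks and was the only one of the 10 genes with a peak in all 12 lists, as had 1.59% of the 2393 genes. Its covered length, the base pairs under its peaks, was 18794, 13591 and 12771 bp in wild-type lists. It was 13978, 13481 and 13756 bp in mfn2-/- lists and 21936, 18493 and 17981 bp in vhl-/- lists. In HIF1dPA lists it was 2557, 552 and 2996 bp. The HIF1dPA values lay below all others, and those of vhl-/- lay above those of mfn2-/-, as at 14.4% of the 2393 genes. Averaged over the 12 lists, only Galnt2l and Zic4 had a longer covered length among all genes.

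The strongest Gata4 peak was near the top of most lists. It ranked 8 of 3443 peaks in wild-type replicate 2, with a score of 433.13, and lay in the top 5% of 8 of the 9 lists other than HIF1dPA. In HIF1dPA lists the strongest Gata4 peak ranked 25 of 482, 411 of 499 and 40 of 501.

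Gata6, a partner of Gata4 in heart and gut development, had a covered length of 3435, 2062 and 4777 bp in wild-type lists. The values were 2551, 4592 and 3205 bp in mfn2-/- lists and 4569, 7137 and 2758 bp in vhl-/- lists, so these 3 genotypes overlapped. HIF1dPA replicate 1 had a single Gata6 peak of 813 bp, and the other two HIF1dPA lists had none. Peaks of the antisense gene Gata6os lay beside it in 9 lists. Summed over both genes, wild-type lists had 5910 ± 1132 bp, mfn2-/- lists 6456 ± 532 bp, vhl-/- lists 8342 ± 2336 bp and HIF1dPA lists 271 ± 469 bp (SD, n = 3 each).

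Gata3, which specifies T cells, had 3568, 1079 and 3127 bp in wild-type lists. It had 5267, 2737 and 3683 bp in mfn2-/- and 2670, 2588 and 6175 bp in vhl-/- lists. HIF1dPA replicate 1 had 1 peak of 654 bp and the other two HIF1dPA lists had none. Of the 32 Gata3 peaks, 10 were distal intergenic, and the neighbouring 9230102O04Rik held peaks in 10 lists.

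Gata2, a factor of blood stem cells, had 18 peaks, with a median percentile of 50.7 within their lists. Its covered length was 1816, 833 and 1055 bp in wild-type, 1436, 2158 and 5033 bp in mfn2-/-, and 579, 2298 and 821 bp in vhl-/- lists, with no peak in any HIF1dPA list. Its strongest peak had a median percentile of 70.7 over the 9 lists, where 100 is the strongest peak of a list, and reached the top 5% of none. The highest value was that of mfn2-/- replicate 3, with 6 peaks, and the 3 genotypes overlapped.

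Gata5, another heart and gut factor, had no peak by the authors' assignment, although peaks lay at the gene. Within the RefSeq interval of Gata5 and 3000 bp on each side, 14 peaks were found in 9 lists, and all had been assigned to the antisense gene Gata5os. Taken by position, the covered length was 2789, 1402 and 1318 bp in wild-type, 1586, 659 and 2020 bp in mfn2-/-, and 842, 654 and 0 bp in vhl-/- lists. HIF1dPA replicate 1 had 584 bp and the other two had none. The wild-type values lay above those of vhl-/-, as at 2.86% of the 2553 genes counted this way, and overlapped those of mfn2-/-.

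The ZIC genes lie in linked pairs, and both pairs carried peaks in every wild-type, mfn2-/- and vhl-/- list. Zic1 and Zic4, which act together in the cerebellum, sit side by side on chromosome 9. Zic4 had 163 peaks, the most of the 10 genes, in a span of 94280 bp. Its covered length was 22451, 11010 and 14661 bp in wild-type, 21537, 11825 and 16802 bp in mfn2-/-, and 21689, 22054 and 14489 bp in vhl-/- lists. In HIF1dPA lists it was 0, 1303 and 1187 bp. The 3 longer-list genotypes overlapped fully, and the HIF1dPA lists lay below them.

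Zic1 had 4592, 6912 and 6784 bp in wild-type lists and 6573, 5373 and 3360 bp in mfn2-/- lists. In vhl-/- lists it had 5904, 5163 and 8457 bp, and of the HIF1dPA lists only replicate 1 had a peak, of 1150 bp. Its strongest peak lay in the top 5% of 7 of the 9 other lists, with a best rank of 17 of 3884 in vhl-/- replicate 1. Joined with Zic4, wild-type lists had 22137 ± 4600 bp, mfn2-/- lists 21823 ± 5643 bp, vhl-/- lists 25919 ± 2581 bp and HIF1dPA lists 1213 ± 79.8 bp (SD, n = 3 each).

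Counting by position changed the Zic1 comparison. Around Zic1, 23 peaks were assigned to Zic1 and 18 to Zic4. Within the RefSeq interval and 3000 bp on each side, peaks at Zic1 covered 7195, 6370 and 7058 bp in wild-type lists. They covered 3020, 4542 and 5265 bp in mfn2-/- lists, 8164, 8426 and 7689 bp in vhl-/- lists and nothing in HIF1dPA lists. The mfn2-/- values lay below wild-type, as at 10.4% of genes, and the vhl-/- values above it, as at 8.26%. No genotypes overlapped, and mfn2-/- below wild-type below vhl-/- was an order found at 0.431% of 2553 genes counted this way. The exact permutation test across 4 genotypes gave its smallest possible p, 6.49e-05, with a Benjamini-Hochberg adjusted p of 0.0276, and 4.39% of all genes passed. This counting was chosen after seeing the data, and without the HIF1dPA libraries the exact p was 0.00357 with an adjusted p of 0.256. All peaks together covered 3461614 to 4065657 bp in vhl-/-, 3019106 to 3524903 bp in wild-type and 2614860 to 3061423 bp in mfn2-/- lists, and the mfn2-/- lists held the X chromosome peaks described above. Their part in the order was not tested.

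Zic2, a gene of forebrain and neural tube closure, had 3024, 4375 and 6403 bp in wild-type, 3597, 3545 and 4255 bp in mfn2-/-, and 3045, 6427 and 5698 bp in vhl-/- lists. No HIF1dPA list had a Zic2 peak. Its strongest peak ranked 16 of 3636 in vhl-/- replicate 3 and 18 of 3776 in wild-type replicate 1. Its neighbour Zic5 carried peaks in the same 9 lists. Together with 2610035F20Rik beside it, the Zic2 and Zic5 locus had 10803 ± 2022 bp in wild-type lists, 12304 ± 1293 bp in those of mfn2-/-, 15645 ± 2271 bp in those of vhl-/- (SD, n = 3 each) and no peak in HIF1dPA lists.

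Sall1, which is needed for kidney development, was the one gene whose covered length passed the adjusted test across genotypes. The values were 3929, 3477 and 5482 bp in wild-type lists and 3936, 6591 and 6362 bp in mfn2-/- lists. They were 6955, 9875 and 6360 bp in vhl-/- lists and 0, 1369 and 0 bp in HIF1dPA lists. The vhl-/- values lay above all wild-type values, as at 6.23% of genes. The exact permutation p was 0.000909 and the Benjamini-Hochberg adjusted p was 0.0494, and 1.84% of the 2393 genes passed. The call held under 4 of 24 alternative settings. It was lost without the HIF1dPA libraries (adjusted p = 0.276), as a share of the list's covered base pairs (exact p = 0.803), and when any library but vhl-/- replicate 3 was left out. The percentile of its strongest peak was 86.6, 65.2 and 87.7 in wild-type, 95.6, 94.7 and 95.4 in mfn2-/- and 92.7, 93.6 and 98.9 in vhl-/- lists, so all 6 values lay above those of wild-type, as at 10% of genes for mfn2-/- and 4.97% for vhl-/-. The exact permutation test of this percentile across 4 genotypes gave an adjusted p of 0.0872. Counted by position as for Zic1, vhl-/- lists had 6367, 8889 and 3398 bp at Sall1. These overlapped the wild-type values of 3317, 2635 and 5571 bp.

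Sall3, its relative, had a short intronic block. The covered length was 2832, 2035 and 1694 bp in wild-type, 1541, 1095 and 819 bp in mfn2-/- and 1946, 2108 and 1287 bp in vhl-/- lists, with no peak in HIF1dPA lists. All mfn2-/- values lay below all wild-type values, as at 10.1% of the 2393 genes. The 3 wild-type against 9 mutant libraries gave an exact permutation p of 0.0545 and an adjusted p of 0.524. Counted by position as for Zic1, mfn2-/- lists had 2014, 3051 and 819 bp at Sall3. These overlapped the wild-type values of 4421, 3745 and 2929 bp. Peaks assigned to Gm27239 lay in that interval too.

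**Figure D2:**
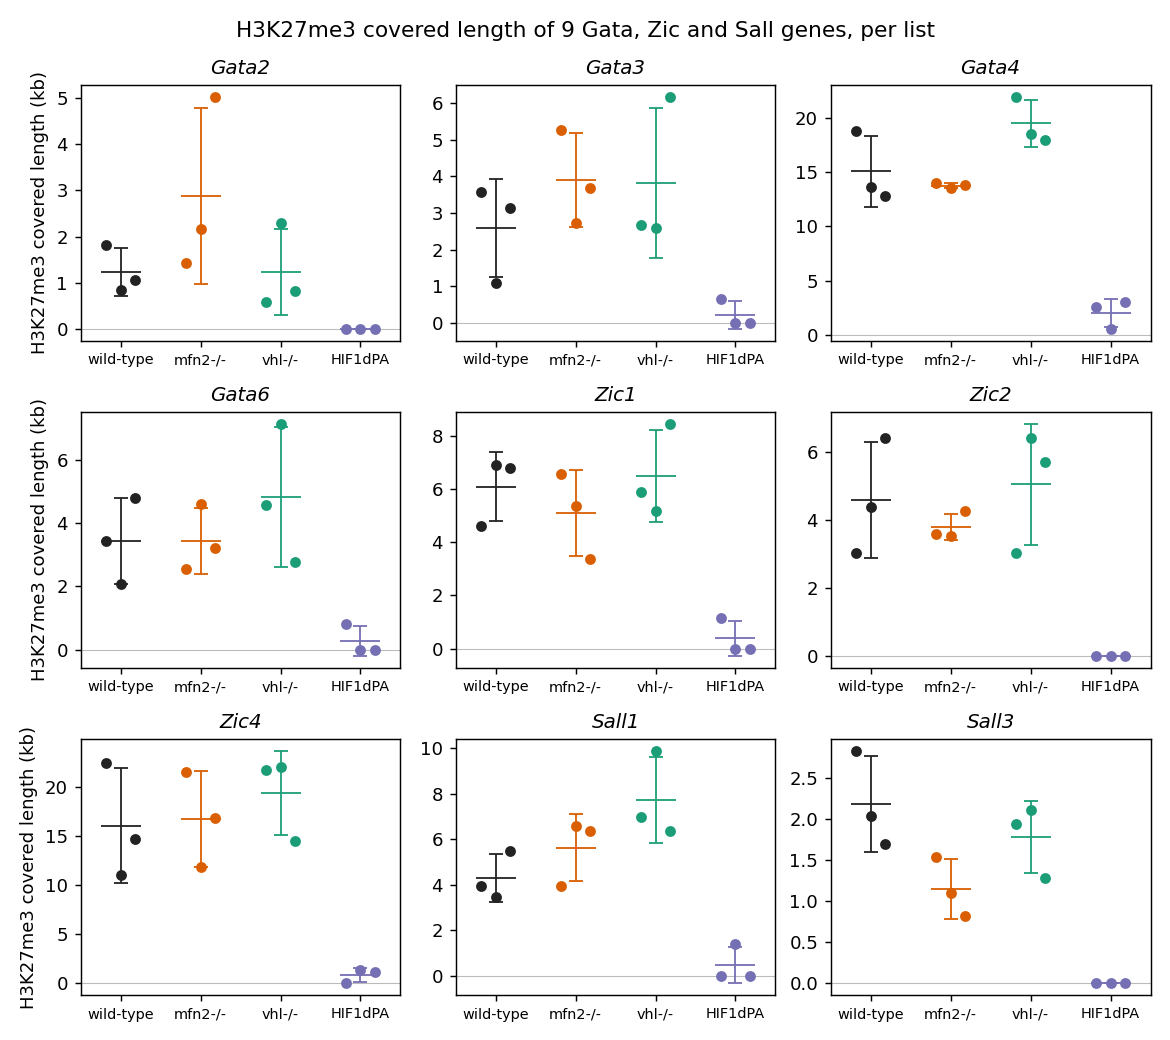
Covered length in kb of 9 genes in each list (points), with the mean (bar) and SD (whiskers) over 3 libraries of each genotype. At all 9 genes the HIF1dPA points lie below the others, and at Sall1 the vhl-/- points lie above the wild-type points.

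Per length of gene with its flanks, the ZIC genes were the most densely covered. The share of the RefSeq interval with 3000 bp on each side that lay under peaks was 46.9% ± 1.44 at Zic1 and 44.0% ± 15.3 at Zic2 in wild-type lists (SD, n = 3). Zic4 followed with 30.0% ± 14.4 and Gata4 with 18.7% ± 3.66, and these neighbours in the order overlap within their SD. Gata2 was the lowest at 5.23% ± 0.782. In vhl-/- lists Zic2 and Zic1 reached 59.6% ± 20.1 and 59.0% ± 2.72. The flanks weigh more at short genes, since the whole interval was 10945 bp at Zic2 and 78799 bp at Gata4. The Zic1 interval also held peaks assigned to Zic4.

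Across the 4 genotypes, all 9 genes with peaks had an unadjusted exact permutation p under 0.05 for covered length, compared with 33.2% of the 2393 genes tested. That share is not over like genes. All 9 had a peak in every wild-type, mfn2-/- and vhl-/- list, as had 15.3% of the 2393 genes. Sall1 alone passed after adjustment. The adjusted p was 0.0564 for Gata4 and Sall3, 0.0734 for the ZIC genes, 0.0833 for Gata6, 0.128 for Gata3 and 0.13 for Gata2. Without the HIF1dPA libraries, a comparison chosen after seeing the data, the lowest exact p of the 9 genes was 0.05, at Sall1, and 0 of 2293 genes passed the adjustment, with 403 below an unadjusted 0.05.

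HIF1dPA lists had a shorter mean covered length than the other 9 libraries at each of the 9 genes. The means were 2035 against 16087 bp at Gata4, a difference of 14052 bp, and 830 against 17391 bp at Zic4, a difference of 16561 bp. Gata4, Gata6, Zic1, Zic2, Zic4, Sall1 and Sall3 reached the smallest p that 220 arrangements allow, 0.00455, with an adjusted p of 0.0579. No gene passed in this exact test, since 218 of the 2393 genes would have to share that p, and 439 genes (18.3%) were below an unadjusted 0.05, among them 8 of the 9. At all 9 genes the HIF1dPA lists lay below the wild-type lists without overlap, as at 29% of the 2393 genes. Among the 367 genes with a peak in all 9 other lists, HIF1dPA lay below all 9 at 80.4%. The 3 genes Gata2, Zic2 and Sall3 had peaks in every wild-type list and in none of HIF1dPA, as had 16.3% of the 2393 genes. Peaks in at least 1 HIF1dPA list were found at 6 of the 9 genes and at 70.8% of the 367.

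As a share of the list, the differences were smaller. The 10 genes took 1.83, 1.48 and 1.88% of all covered base pairs in wild-type lists and 2.02, 1.97 and 1.87% in mfn2-/- lists. The shares were 1.84, 1.87 and 1.85% in vhl-/- lists and 1.56, 0.912 and 1.21% in HIF1dPA lists. On this scale the Gata4 mean was higher in HIF1dPA lists, at 0.598% ± 0.386 against 0.466% ± 0.0587 in wild-type lists (SD, n = 3). The groups overlapped, with HIF1dPA values from 0.156 to 0.867% and wild-type values from 0.423 to 0.533%. In the exact permutation test of HIF1dPA against the rest, Zic2 and Sall3, with none in HIF1dPA lists, kept the smallest p of 0.00455 on this scale. Zic4 had 0.00909, and the other 6 genes had an exact p of 0.0545 or more. None passed the adjustment, with an adjusted p of 0.126 for Zic2 and Sall3 and 0.209 for Zic4. Over all genes, 0 of 2393 passed and 299 were below an unadjusted 0.05.

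When every list was cut to its 482 strongest peaks, wild-type lists held a peak at 6.33 ± 0.577 of the genes, mfn2-/- lists at 6.67 ± 0.577, vhl-/- lists at 7.67 ± 0.577 and HIF1dPA lists at 3 ± 1 (SD, n = 3). Gata4 stayed in all 12 lists, and Zic1, Zic2 and Zic4 stayed in all 9 lists of the other genotypes. Gata2 stayed in 1. The covered length of the 10 genes was then 24711, 21657 and 23156 bp in wild-type lists and 30241, 25463 and 21515 bp in mfn2-/- lists. It was 32039, 43238 and 34221 bp in vhl-/- lists and 5174, 3224 and 4183 bp in HIF1dPA lists. Summed over the 10 genes, the HIF1dPA lists thus lay below the others at equal length too. The vhl-/- lists lay above the wild-type and mfn2-/- lists. Gene by gene, the exact permutation test of HIF1dPA against the rest called 0 of the 8 genes tested and 0 of 462 genes in all. Below an unadjusted 0.05 were 4 of the 8 and 85 of the 462. The lowest adjusted p of the 8 was 0.0636, at Gata4 and Zic2. The lowest score among the 482 strongest peaks was 50.0 to 50.4 in HIF1dPA and 96.1 to 133 in the other lists. Peak width also differed over whole lists. The mean of the list medians was 798 bp in vhl-/-, 757.5 bp in wild-type, 684 bp in mfn2-/- and 617 bp in HIF1dPA lists. Whether the counts of genes with a peak or the order of covered length are particular to the 10 genes was not tested.

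**Figure D3:**
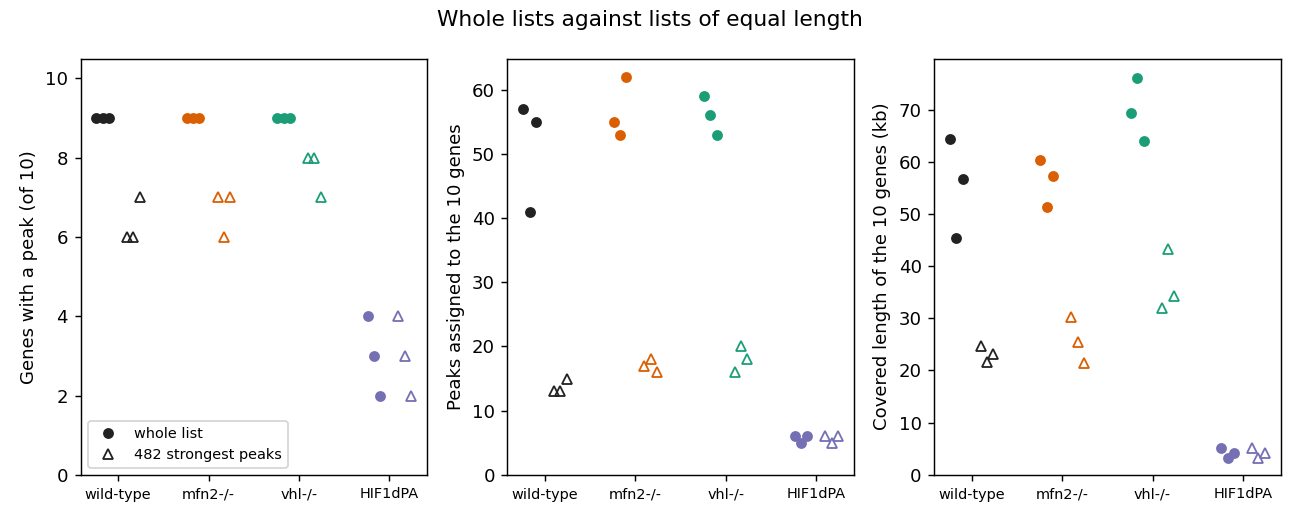
Number of the 10 genes with a peak, number of their peaks and their covered length in kb in each list, for whole lists (filled circles) and for the 482 strongest peaks of each list (open triangles), with 3 libraries per genotype. At equal length 6 to 8 genes keep a peak in wild-type, mfn2-/- and vhl-/- lists and 2 to 4 in HIF1dPA lists.

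The peaks left in HIF1dPA lists stood where the other lists had theirs. Each of the 17 overlapped a peak of at least 1 of the 9 other lists, and 12 overlapped peaks of 5 or more. Over the 582 HIF1dPA peaks of genes with a peak in all 9 other lists, 93.1% overlapped at least 1, and the median was 6 lists for both. Gata4 held 8 of the 17. At chr14:63262431-63263580 in replicate 1 and chr14:63263611-63264730 in replicate 3, its HIF1dPA peaks overlapped peaks of all 9 other lists. The intronic Sall1 peak at chr8:89040127-89040887 in replicate 2 overlapped peaks of 8. The 3 HIF1dPA lists did not keep the same genes: Gata3, Gata6 and Zic1 had a peak only in replicate 1, and Sall1 only in replicate 2.

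**Figure D4:**
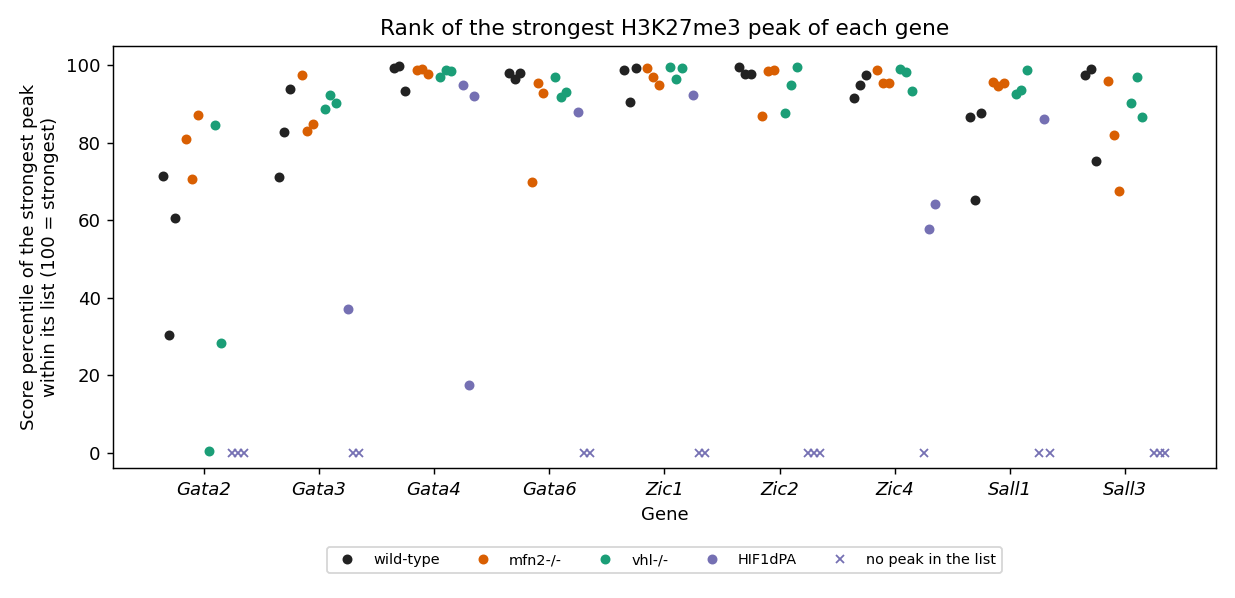
Percentile of the strongest peak of each gene within its list (100 is the strongest peak of the list), with 3 libraries per genotype, and crosses at 0 where a list has no peak. Gata4, Zic1, Zic2 and Zic4 lie above 87 in all wild-type, mfn2-/- and vhl-/- lists, while Gata2 spreads from 0.476 to 87.2.

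By score percentile, with 0 where a list had no peak, all 9 genes had an unadjusted exact permutation p under 0.05 across genotypes, compared with 29.1% of the genes tested. No gene of the 2393 passed the adjustment, and 696 were below an unadjusted 0.05. Over RefSeq intervals 0.157% of 2553 genes passed, none of them among the 10, and 8 of the 10 passed there for the covered length of HIF1dPA against the rest, compared with 9.52% of genes. The shares of 29.1% and 9.52% are over all genes tested, not only those with a peak in every wild-type, mfn2-/- and vhl-/- list. In wild-type the median over the 9 genes of the mean percentile was 94.7, against 86.4 over the 367 genes with a peak in all 9 lists. Where HIF1dPA lists had a peak, it could still rank high, at percentile 92.4 for Zic1 and 86.3 for Sall1.

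Outside HIF1dPA, few of the genes had a genotype that did not overlap wild-type. By covered length none of the 9 lay higher in mfn2-/- (9.61% of the 2393 genes did) or lower in vhl-/- (2.42%), and none was lower in vhl-/- than in mfn2-/- (9.19%). None was higher in HIF1dPA (0.125%). By score percentile Gata6 lay lower in mfn2-/- than in wild-type (7.44% of genes did), at 69.8, 95.4 and 93.0 against 98.1, 96.4 and 98.0. None of the 9 had a percentile lower in vhl-/- than in wild-type (3.13%), higher in vhl-/- than in mfn2-/- (8.94%) or higher in HIF1dPA than in wild-type (0.251%), and 6 lay lower in HIF1dPA (23.4%).

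Wild-type against the 9 mutant libraries separated none of the genes. None of the 9 had an exact p under 0.05, compared with 9.11% of the 2393 genes (218 genes), and 0 genes passed the adjustment. The mean was lower in mutants than in wild-type by 3304 bp at Gata4 and by 3720 bp at Zic4, where the 3 HIF1dPA lists enter the mutant mean, and higher by 309 bp at Sall1.

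Other genes of the same families carried H3K27me3 peaks too. Zic5 and Sall4 had none in HIF1dPA lists, with peaks in 9 and 8 lists, and Sall2 had peaks in 8 lists, 1 of them HIF1dPA. None of these 3 genes passed the adjusted test across genotypes, and Zic5 alone was below an unadjusted 0.05 (exact p = 0.00747). Trps1 had peaks in 2 lists and the cofactor Zfpm2 in 1 HIF1dPA list, while Gata1 and the cofactor Zfpm1 had no peak. Among 9 genes of the Polycomb machinery and the H3K27 demethylases, Ezh2, Jarid2 and Rbbp7 had a peak in 1 list each and none reached 3 lists.

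Fewer genes of any kind had a peak in HIF1dPA lists, 431 ± 2.65 per list against 1940 ± 86.8 in wild-type (SD, n = 3). Of the 21 Hox cluster genes with a peak in any H3K27me3 list, 69.8% ± 2.75 had one in a wild-type list and 17.5% ± 2.75 in a HIF1dPA list. Of the 11 T-box genes with a peak in any such list, the shares were 69.7% ± 5.25 and 30.3% ± 13.9 (SD, n = 3). The corresponding shares of the 10 Gata, Zic and Sall genes were, as counts, 9 ± 0 and 3 ± 1 of 10. Unlike the Hox and T-box sets, these 10 include a gene without any peak, Gata5. At equal list length 6.67 ± 1.53 Hox genes had a peak in wild-type and 3.67 ± 0.577 in HIF1dPA lists, and 3 ± 1 and 3.33 ± 1.53 T-box genes (SD, n = 3). Whether the 3 groups of genes differ in this was not tested. Among 436 other genes with a peak in at least 9 lists, the mean covered length of the 10 genes over the 12 lists was followed most closely by that of Gm10837, which lies near Zic2, with a Pearson r of 0.984. Igf2bp3, Gm43517, Plag1 and Tbx20 came next with r from 0.974 to 0.969. These are descriptions over 12 lists that share the short HIF1dPA libraries.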

How the data were processed

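Per the labels, H3K27me3 and H3K9me3 ChIP-seq was made from 24 libraries, 3 for each of 4 genotypes and mark, with 1 input library not analysed here. The submitters' processing notes name BWA 0.7.5, MACS, deepTools 3.5.0 and mm10. The authors deposited 1 annotated peak list per library, each row with other values (start and end) and a score, 10 times −log10 of the peak p-value, from 50 to 3100. Read totals were not given, so no counting interval could be computed.

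Covered length was summed per gene symbol and list with Python 3.11.15, numpy 2.4.6 and pandas 2.3.3 (figures: matplotlib 3.10.9). The 2393 genes with a peak in at least 3 of 12 lists were tested by exact permutation over libraries (two-sided for 2 groups), across 4 genotypes, wild-type against mutants, and HIF1dPA against the rest, with Benjamini-Hochberg adjustment over all of them and a threshold of 0.05. The same test was run on the percentile of each gene's strongest peak. The scripts were tested on simulated data. All 10 genes are named, with family (1 is not reported here), Polycomb, Hox and T-box genes and, of 436 candidates, the 5 most alike. The members and lists were chosen with earlier results of these data known. The authors' gene assignment was used, and RefSeq intervals only as an alternative chosen after seeing the data.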

Additional observations from a re-analysis of the deposited data

Results flagged for a closer look

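H3K9me3, the mark of constitutive heterochromatin, was not used in the comparisons above. In its lists 6 peaks were assigned to 3 of the genes, in 4 of the 9 mutant lists and none of the 3 wild-type lists. Gata2 had an H3K9me3 peak in 3 mutant lists, mfn2-/- replicates 2 and 3 and HIF1dPA replicate 2, at 17876 to 19707 bp from the RefSeq gene. Gata6 had one in 2 mfn2-/- lists, 202841 and 209958 bp away. Zic1 had one in 1 HIF1dPA list, 90060 bp away. All 6 were distal intergenic, with scores from 54.7 to 86.2, and the difference from wild-type was not tested. The mutant lists outnumber the wild-type lists, and the share of all genes with such a pattern is not given here.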

How the results depend on the processing

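The number of the genes called across 4 genotypes was 1 and became 2 with peaks of score 100 or more, 2 over merged regions and 2 over RefSeq intervals with 3000 bp on each side. It was 0 with equal numbers of strongest peaks, promoter peaks only, no filter on lists, peaks within 1000 bp joined, percent of the list's base pairs, without the HIF1dPA libraries, and over RefSeq intervals without them. Leaving out 1 library gave 0 to 3, the highest without vhl-/- replicate 3. The adjusted p of Sall1 ran from 0.0383 to 1. Over all genes the 44 calls became 112 over RefSeq intervals, 81 over merged regions and 43 of 500 genes at score 100 or more. They became 19 with promoter peaks, 1 at equal number, 0 with no filter, 0 as percent of the list and 0 without HIF1dPA. With 1 library left out they ran from 0 to 104. HIF1dPA against the rest called 0 of the genes, but 4 at score 100 or more and 8 over RefSeq intervals. Over all genes it called 0 of 2393, and at these settings 51 of 500 and 243 of 2553. No HIF1dPA peak of the 10 genes reached a score of 100. RefSeq intervals and leaving out HIF1dPA were chosen after seeing the data.

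Same-numbered libraries did not deviate together (mean r of 0.00394 over 18 pairs, 0 over 0.1). The labels do not say what the number stands for. A low correlation of covered lengths cannot exclude a shared animal or batch. With a replicate block, 0 of the genes and 0 of 2393 were called across genotypes, and the adjusted p of Sall1 was 0.179.

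At score 100 or more, a wild-type list had a peak at 6.67 of the genes, an mfn2-/- list at 6.67, a vhl-/- list at 8.33 and a HIF1dPA list at 0. At equal number they were 6.33, 6.67 and 7.67 in the first 3 genotypes, with promoter peaks only 6.33, 7.67 and 7, and over RefSeq intervals, with or without HIF1dPA, 10, 10 and 9.67. The 3 genes with peaks in all wild-type and no HIF1dPA list became 5 at score 100 or more and 1 at equal number, and 3 to 6 with 1 library left out, the highest without HIF1dPA replicate 1. Over all genes the 389 of 2393 became 138 of 500 at score 100 or more and 29 of 462 at equal number. Without HIF1dPA replicate 1 they became 467 of 2355. The causes were not tested. None of the 10 genes was called in wild-type against mutants or by score percentile under any setting run. Over all genes, score percentile called 2 with promoter peaks only and 4 over RefSeq intervals.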
